A study of Mus musculus with 24 samples.

Results

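The BCL2 family decides at the mitochondrial outer membrane whether a stressed cell survives or undergoes apoptosis. Its 10 best studied genes were followed here through palmitate loading and *Bmal1* and *Chrebp* silencing in mouse hepatocytes: the anti-apoptotic *Bcl2*, *Bcl2l1* and *Mcl1*, the pore-forming effectors *Bax* and *Bak1*, and the BH3-only genes *Bid*, *Bad*, *Bcl2l11*, *Bbc3* and *Pmaip1*. They were chosen by gene name out of 55487 genes in the count table, of which 21543 had at least 1 count, and all 10 passed the filter on low counts in every fit. The cells were AML-12, an established hepatocyte line from mice carrying a human TGFα transgene. They were sequenced by BRB-seq, which reads only the 3′ end of each mRNA. BSA cells were given albumin alone, and PAL cells albumin-bound palmitate at 0.25 mM, a saturated fatty acid. CON, BMAL1, CHREBP and BOTH cells all received 0.25 mM palmitate and, in the last 24 hours, enzymatically prepared small interfering RNA (esiRNA). CON cells received 200 nM of esiRNA against *Egfp*, BMAL1 cells 100 nM against *Bmal1*, CHREBP cells 100 nM against *Chrebp*, and BOTH cells the combination at 200 nM in total. Each group had 4 libraries, and nothing in the labels says that these were separate cultures, so that p-values measure the spread between these libraries, which may be technical.

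Apoptosis through mitochondria starts when BH3-only proteins are made or activated under stress. They bind the anti-apoptotic members and release or directly activate BAX and BAK1, which open the outer membrane and let cytochrome c out. Hepatocytes depend on MCL1 and BCL-XL, the product of *Bcl2l1*, for survival. In hepatocytes, BID also carries the death receptor signal from caspase-8 to the mitochondria, and PUMA (*Bbc3*) and BIM (*Bcl2l11*) are known from studies of saturated fatty acid toxicity. The transcript levels below do not measure the activity of these proteins, several of which are controlled by cleavage, phosphorylation or degradation.

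Libraries had between 5399700 and 11237474 gene counts, and 3 counts corresponded to 2.02 to 4.24 normalized counts. Normalized counts are counts divided by the DESeq2 size factors of all 24 libraries. Hepatocyte markers were present, with 12 of 14 at a median of at least 1 CPM, while *Apoa1* and *Apoa2* were below that level and *Alb* was at 11.8 to 35.7 CPM. Of the markers of other liver cells, the macrophage genes *Adgre1* and *Clec4f*, the T cell gene *Cd3e*, the stellate cell genes *Lrat* and *Pdgfrb* and the endothelial genes *Cdh5*, *Kdr* and *Lyve1* were at 0 in all libraries. Others of these lists were detected at low levels, the macrophage genes *Cd68* at 0.797 to 2.89 CPM and *Csf1r* at up to 1.94, the leukocyte gene *Ptprc* at up to 0.864, and the stellate cell and fibroblast genes *Des* at up to 1.91 and *Col1a1* at 0.120 to 1.27 CPM. Of the bile duct genes, *Krt19*, *Sox9* and *Krt7* reached 438, 308 and 58.4 CPM, while *Epcam* was at no more than 0.370 CPM. The targeted genes were lower in BOTH than in CON, by a log2 fold change of -0.98 for *Arntl* (*Bmal1*; DESeq2 adjusted p (*Padj*) = 0.00994) and -1.07 for *Mlxipl* (*Chrebp*; DESeq2 *Padj* = 0.00762), and neither passed the test over all genes with 1 esiRNA alone. *Arntl* averaged 44.7 normalized counts in CON and 26.0 in BMAL1, and *Mlxipl* 35.6 in CON and 25.9 in CHREBP, with overlap in each case. The paper reports both knockdowns by quantitative PCR as well. The plate position differed with the groups: CON and BMAL1 were in library column 2, and CHREBP and BOTH in column 3, while BSA and PAL were in column 1. Column therefore cannot be told apart from *Chrebp* esiRNA against CON or BMAL1, nor from transfection in CON against PAL, and within a column the rows followed palmitate or *Bmal1* esiRNA. By its interferon-induced genes, CON replicate 1 stood apart from its group: 10 such genes summed to 826 normalized counts there and to 3411 to 6971 in the other CON libraries. Members' fold changes against CON that are described singly are therefore also given without it, as are the values of list genes whose call was lost without it. The total esiRNA dose also differed, 100 nM in BMAL1 and CHREBP and 200 nM in CON and BOTH, and cannot be told apart from the silencing in BMAL1 or CHREBP against CON, in BOTH against either of them, or in the interaction.

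Of all members, *Bid*, *Bak1* and *Bbc3* are those whose transcripts were called higher in BOTH against CON, with the calls of *Bak1* and *Bbc3* lost without CON replicate 1 (DESeq2 *Padj* = 0.123 and 0.191), and their promoters are printed here because they are the DNA next to those changes. The sequences are RefSeq windows on GRCm38.p6, from 250 bases before to 50 bases after an annotated start, read 5′ to 3′ on the gene's strand: *Bid* at chr6:120916775-120917074 (- strand), *Bak1* at chr17:27028578-27028877 (- strand) and the third annotated start of *Bbc3* at chr7:16310181-16310480 (+ strand). Capitals mark the palindromic E-box CACGTG, the core bound by BMAL1 with CLOCK and, as a pair, by CHREBP.
Bid: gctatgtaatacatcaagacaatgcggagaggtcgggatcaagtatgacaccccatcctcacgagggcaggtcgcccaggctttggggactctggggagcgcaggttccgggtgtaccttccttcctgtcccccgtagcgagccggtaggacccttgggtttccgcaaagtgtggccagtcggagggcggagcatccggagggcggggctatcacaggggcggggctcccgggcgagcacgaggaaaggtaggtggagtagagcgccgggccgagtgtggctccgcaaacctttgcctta
Bak1: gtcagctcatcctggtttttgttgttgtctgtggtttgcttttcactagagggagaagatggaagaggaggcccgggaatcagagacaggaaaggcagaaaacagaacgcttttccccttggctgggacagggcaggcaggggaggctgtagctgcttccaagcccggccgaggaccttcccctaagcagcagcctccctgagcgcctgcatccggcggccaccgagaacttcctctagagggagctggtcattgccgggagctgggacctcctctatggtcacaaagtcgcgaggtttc
Bbc3: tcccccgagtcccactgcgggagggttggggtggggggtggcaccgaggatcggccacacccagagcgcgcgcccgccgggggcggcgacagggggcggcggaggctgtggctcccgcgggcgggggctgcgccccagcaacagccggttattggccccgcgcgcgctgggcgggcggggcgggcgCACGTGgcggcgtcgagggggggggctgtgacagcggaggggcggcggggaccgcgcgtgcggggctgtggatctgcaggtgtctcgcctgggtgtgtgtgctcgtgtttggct
The E-box was present in this *Bbc3* window, starting 64 bases before the start, and in neither of the other printed windows nor in the windows of the other two *Bbc3* starts. Windows of 9 members were searched, and *Pmaip1* was not. The E-box was also found in *Bax*, with 2 matches, while 7.15% of 32851 promoter windows held at least 1. The core of the interferon-stimulated response element (GAAA, any 2 bases, then GAAA), the STAT site TTCNNNGAA and the CHOP/ATF4 site TTGCATCA, each searched on both strands, matched none of the windows of these 9 members. Over all windows they were found in 3.44%, 8.3% and 0.895%. A match or its absence describes only these letters in these windows.

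**Figure D1:**
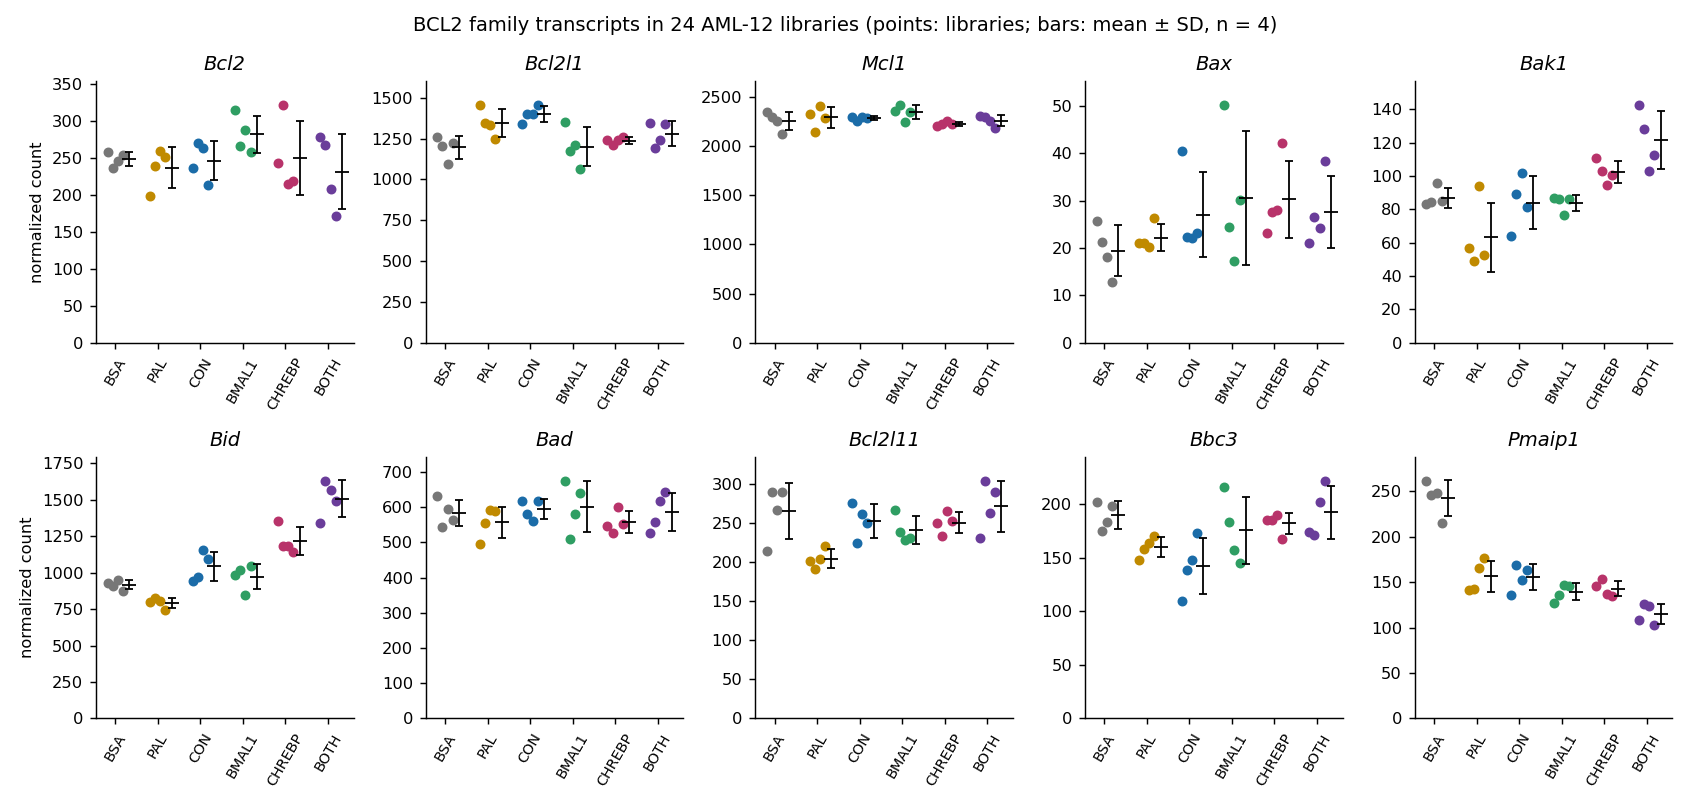
Normalized counts (y axes, from 0) of the 10 members in the 24 libraries, by group on the x axes; points are libraries in replicate order and bars are mean ± SD (n = 4). *Pmaip1* was highest in BSA and lowest in BOTH, *Bid* was highest in BOTH, and *Mcl1* had nearly level group means of 2225 to 2345.

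The question of PAL against BSA is what palmitate loading does to hepatocytes. Palmitate lowered 3 BH3-only transcripts and raised one survival transcript: *Pmaip1*, *Bcl2l11* and *Bid* fell and *Bcl2l1* rose. These 4 of 10 members passed DESeq2 at *Padj* under 0.1, where 14.3% of the 12827 tested genes did. The median log2 fold change was -0.13 over the members and 0.00 over all tested genes. Among the BH3-only genes, 3 of 5 fell and none rose, where 7.6% of all tested genes fell and 6.65% rose. Of the called members, *Pmaip1* alone was called in every fit. *Bid*, *Bcl2l11* and *Bcl2l1* lost their call when replicate number was added to the model as a block (DESeq2 *Padj* = 0.133, 0.115 and 0.185).

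The largest change was in *Pmaip1*, which encodes NOXA, the BH3-only protein that binds MCL1. Its normalized counts were 262, 246, 248 and 215 in BSA and 141, 143, 165 and 176 in PAL. Every PAL library lay below every BSA library. The means were 243 ± 19.8 and 157 ± 17.3 (SD, n = 4), and on the log2 scale PAL differed by -0.62 (SE 0.13, DESeq2 *Padj* = 3.64e-05).

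*Bcl2l11* encodes BIM, an activator of BAX and BAK1 that binds all anti-apoptotic members. The gene is on chromosome 2 (GRCm38, 128126038 to 128162547, + strand). It was at 214, 289, 266 and 290.0 in BSA and at 201, 191, 204 and 221 in PAL. The groups overlapped through BSA replicate 1, and the remaining BSA libraries were above all of PAL. PAL differed by -0.36 on the log2 scale (SE 0.12, DESeq2 *Padj* = 0.0367). The call was lost without BSA replicate 2 or 4 or PAL replicate 2 (DESeq2 *Padj* up to 0.169), while the log2 fold change stayed between -0.45 and -0.31 over all 8 such fits.

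*Bid* was at 928, 912, 949 and 877 in BSA and at 800.0, 823, 803 and 742 in PAL. The decrease was small but without overlap, from 916 ± 30.1 to 792 ± 34.6 (SD, n = 4), or -0.21 on the log2 scale (SE 0.07, DESeq2 *Padj* = 0.0317). It did not pass without BSA replicate 1 or 3 or PAL replicate 4 (DESeq2 *Padj* up to 0.159). *Bid* (GRCm38 chromosome 6, 120891930 to 120916853, - strand) overlaps the gene *Bcl2l13* on the other strand in exons, and the use of strand in the counting is not given in the sources used here, so that its counts carry some uncertainty. Mean levels of *Bcl2l13* were 462 in BSA and 464 in PAL, and in no comparison did it pass the test.

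*Bcl2l1* (GRCm38 chromosome 2, 152780668 to 152831728, - strand) encodes BCL-XL. It was at 1262, 1208, 1096 and 1224 in BSA and at 1456, 1345, 1333 and 1248 in PAL, so that only PAL replicate 4 lay within the BSA range. The log2 fold change of 0.17 (SE 0.07) was close to the threshold (DESeq2 *Padj* = 0.0919), and the call held in 2 of 8 fits without 1 library, those without BSA replicate 1 or PAL replicate 4. In the remaining fits *Padj* reached 0.289.

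The remaining members did not pass the test. *Bbc3* was at 175 to 202 in BSA and at 148 to 170.2 in PAL, again without overlap (log2 fold change -0.23, SE 0.13, DESeq2 *Padj* = 0.275). *Bak1* was at 83.1, 84.1, 95.6 and 84.9 in BSA and at 56.8, 49.3, 93.9 and 52.9 in PAL. Here 3 PAL libraries were below all of BSA, and PAL replicate 3 was among the BSA values. The log2 fold change was -0.46 (SE 0.21, DESeq2 *Padj* = 0.165), and without PAL replicate 3 it was -0.71 (DESeq2 *Padj* = 0.0169). *Bcl2*, *Mcl1* and *Bad* had log2 fold changes of -0.06, 0.03 and -0.06, with 95% intervals of -0.28 to 0.17, -0.09 to 0.14 and -0.23 to 0.11. For *Bax*, with 9 to 34 counts per library in these groups, the interval of -0.51 to 0.88 leaves a wide range of changes undetectable at this depth.

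**Figure D2:**
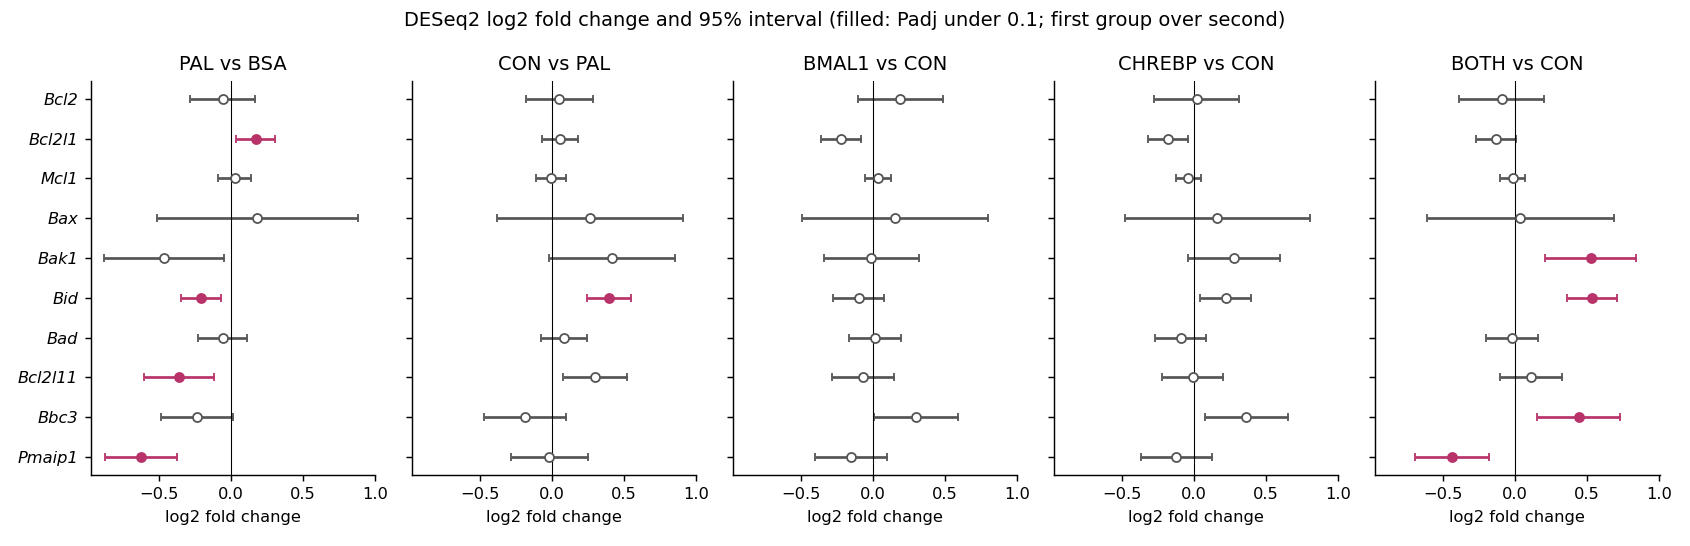
DESeq2 log2 fold changes (x axes) of the 10 members (y axis) in 5 comparisons, with 95% intervals; filled points passed *Padj* under 0.1. There were 4 filled points in PAL against BSA and 4 in BOTH against CON, *Bid* alone in CON against PAL, and none with 1 silencing esiRNA against CON.

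CON against PAL gives the background of the silencing comparisons, namely what transfection with an esiRNA without a mouse target does on top of palmitate. *Bid* was the member that changed: it rose from 800.0, 823, 803 and 742 in PAL to 946, 972, 1157 and 1096 in CON, with no overlap. The log2 fold change was 0.39 (SE 0.08, DESeq2 *Padj* = 7.95e-05), and without CON replicate 1 it was 0.44 (DESeq2 *Padj* = 9.68e-06). This was 1 of 10 members, and 2.51% of 12928 tested genes passed. *Bcl2l11* was at 224 to 275 in CON and at 191 to 221 in PAL, also without overlap (log2 fold change 0.30, SE 0.11, DESeq2 *Padj* = 0.217; 0.25 and DESeq2 *Padj* = 0.504 without CON replicate 1). *Pmaip1* had a mean of 157 in PAL and 155 in CON, a log2 fold change of -0.02 with a 95% interval of -0.29 to 0.25, or 0.04 without CON replicate 1. The summed level of the interferon-induced genes was 246 to 299 in PAL and 826 to 6971 in CON. Its part in the *Bid* difference was not tested.

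The comparisons of BMAL1, CHREBP and BOTH with CON ask which genes depend on *Bmal1* and *Chrebp* under palmitate. They share the CON libraries. With *Bmal1* esiRNA alone, none of the 10 members passed in this DESeq2 fit, with 0.49% of 13883 tested genes called. *Bcl2l1* and *Bbc3* had an unadjusted DESeq2 p under 0.05. The share of all tested genes at that cut is not given here, so that no comparison with the background is made. edgeR called 0 members. With *Chrebp* esiRNA alone, likewise none of the 10 passed in this fit, with 3.42% of genes called by DESeq2. Here *Bcl2l1*, *Bid* and *Bbc3* had an unadjusted DESeq2 p under 0.05, and the background share at that cut is again not given. edgeR again called 0. Without CON replicate 1, DESeq2 likewise called 0 members in both comparisons.

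*Bcl2l1* was at 1339, 1402, 1401 and 1457 in CON. It was at 1355, 1177, 1213 and 1062 in BMAL1 and at 1244, 1209, 1239.7 and 1257 in CHREBP. All CHREBP libraries and 3 of 4 BMAL1 libraries were below all of CON. The log2 fold changes were -0.22 (SE 0.07, DESeq2 *Padj* = 0.149) in BMAL1 and -0.18 (SE 0.07, DESeq2 *Padj* = 0.19) in CHREBP. When only the 2 groups compared were fitted, *Bcl2l1* passed in each case (DESeq2 *Padj* = 0.0881 and 0.0563). Without CON replicate 1, the values were -0.24 and -0.20 (DESeq2 *Padj* = 0.176 and 0.23). In BOTH it was at 1347, 1191, 1243 and 1339, with a log2 fold change against CON of -0.13 (SE 0.07, DESeq2 *Padj* = 0.314), or -0.15 without CON replicate 1 (DESeq2 *Padj* = 0.291), and it overlapped CON.

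With both esiRNAs, *Bid*, *Bak1* and *Bbc3* rose and *Pmaip1* fell against CON. These were 4 of 10 members, and 9.73% of 13883 tested genes passed. The median log2 fold change was 0.01 over the members and -0.01 over all tested genes. None of the 3 anti-apoptotic genes passed the test: *Bcl2* and *Mcl1* had log2 fold changes of -0.09 and -0.02, with 95% intervals of -0.39 to 0.20 and -0.11 to 0.07. Their fold changes without CON replicate 1 were -0.11 and -0.02.

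*Bcl2l11* was at 275, 224, 262 and 249 in CON, 266, 238, 228 and 230.3 in BMAL1, 250.3, 233, 265 and 253 in CHREBP and 230.1, 304, 262 and 289 in BOTH. All 4 groups overlapped, and its log2 fold changes against CON were -0.07, -0.01 and 0.11, or -0.03, 0.03 and 0.15 without CON replicate 1, none of which passed.

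*Bid* reached 1343, 1633, 1569.6 and 1490.1 in BOTH, where CON was at 946 to 1157. Every BOTH library lay above every CON library. The mean rose from 1043 ± 100.3 to 1509 ± 125 (SD, n = 4), or by 0.53 on the log2 scale (SE 0.09, DESeq2 *Padj* = 1.14e-07), and without CON replicate 1 it was 0.49 (DESeq2 *Padj* = 1.32e-05). CHREBP against CON gave a value of 0.22 for *Bid* (SE 0.09, DESeq2 *Padj* = 0.221), or 0.18 without CON replicate 1 (DESeq2 *Padj* = 0.577), with overlap. The overlapping *Bcl2l13* had means of 466 in CON and 499 in BOTH.

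*Bak1*, the effector that resides on mitochondria in healthy cells, was at 63.7, 89.0, 102 and 81.2 in CON and at 143, 128, 103 and 112 in BOTH. The groups did not overlap, but CON replicate 3 at 102 and BOTH replicate 3 at 103 nearly met. The log2 fold change was 0.52 (SE 0.16, DESeq2 *Padj* = 0.0189). Without CON replicate 1 it was 0.41 and no longer passed (DESeq2 *Padj* = 0.123). *Bak1* (GRCm38 chromosome 17, 27019810 to 27029009, - strand) overlaps exons of *Ggnbp1* on the other strand, which had at most 7 counts in any library.

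*Bbc3* encodes PUMA, a BH3-only protein induced by p53 and by endoplasmic reticulum stress, from chromosome 7 (GRCm38, 16308393 to 16318205, + strand). It was at 109.5, 138, 147 and 173 in CON and at 174, 171, 202 and 222 in BOTH. Only CON replicate 4, which lay above BOTH replicate 2, made the groups overlap. BOTH was 0.44 higher on the log2 scale (SE 0.15, DESeq2 *Padj* = 0.0391), and without CON replicate 1 it was 0.34 and did not pass (DESeq2 *Padj* = 0.191). The call was also lost without CON replicate 2, BOTH replicate 3 or BOTH replicate 4. In BMAL1 it was at 216, 183, 157 and 145 (log2 fold change against CON 0.30, DESeq2 *Padj* = 0.637). In CHREBP it was at 185, 185, 189.7 and 167 (log2 fold change 0.36, DESeq2 *Padj* = 0.218). These values were 0.20 and 0.26 without CON replicate 1 (DESeq2 *Padj* = 0.975 and 0.623). The means of BMAL1, CHREBP and BOTH were 175 ± 31.3, 182 ± 9.93 and 192 ± 24.4 (SD, n = 4), and their libraries overlapped.

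*Pmaip1*, already low under palmitate, was lower still in BOTH. Its level was 136, 169, 153 and 163 in CON and 108, 126, 124 and 103 in BOTH, without overlap. On the log2 scale BOTH differed by -0.44 (SE 0.13, DESeq2 *Padj* = 0.0148), and without CON replicate 1 it was -0.49 (DESeq2 *Padj* = 0.00844). In BMAL1 it was at 128, 136, 147 and 146 and in CHREBP at 146, 153, 137 and 135. All BOTH libraries were below these as well, with log2 fold changes of BOTH of -0.28 against BMAL1 (DESeq2 *Padj* = 0.207) and -0.31 against CHREBP (DESeq2 *Padj* = 0.391) that did not pass. *Pmaip1* lies on chromosome 18 (GRCm38, 66458533 to 66465565, + strand) and overlaps no other annotated gene.

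Comparing BOTH with each single silencing, *Bid* was above CHREBP and above BMAL1, and *Bak1* was above BMAL1. Against CHREBP, where 0.994% of tested genes passed, *Bid* was the 1 of 10 members called. CHREBP was at 1357, 1182, 1183 and 1139, so that CHREBP replicate 1 overlapped with BOTH replicate 1, and the log2 fold change was 0.31 (SE 0.09, DESeq2 *Padj* = 0.0496). edgeR did not call it (*Padj* = 0.151), and DESeq2 lost it without CHREBP replicate 2, 3 or 4 or BOTH replicate 2 or 3 (*Padj* up to 0.239). Against BMAL1, where 10.4% of tested genes passed, 2 of 10 members were called. *Bid* was at 984, 1018, 847 and 1043 in BMAL1, and BOTH was 0.63 higher on the log2 scale (SE 0.09, DESeq2 *Padj* = 9.13e-11). *Bak1* was at 86.9, 86.1, 76.6 and 85.9 in BMAL1, and BOTH was 0.54 higher (SE 0.16, DESeq2 *Padj* = 0.0175), with no overlap for either gene.

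The interaction asks whether the effect of *Bmal1* esiRNA depends on *Chrebp* esiRNA. *Bid* passed, as 1 of 10 members where 1.47% of tested genes did. Its log2 fold change with *Bmal1* esiRNA was -0.10 (95% interval -0.28 to 0.08, or -0.14 without CON replicate 1) without *Chrebp* esiRNA and 0.31 (0.14 to 0.49) with it, and the difference was 0.41 (SE 0.13, DESeq2 *Padj* = 0.0627), or 0.46 without CON replicate 1 (DESeq2 *Padj* = 0.0354). edgeR gave *Padj* = 0.149, and DESeq2 with replicate number as a block gave *Padj* = 0.106. The DESeq2 call was also lost in 8 of 16 fits without 1 library (*Padj* up to 0.216), those without CON replicate 3 or 4, BMAL1 replicate 3, CHREBP replicate 2, 3 or 4, or BOTH replicate 2 or 3. *Bcl2l1* had an interaction of 0.27 (SE 0.10, DESeq2 *Padj* = 0.211), or 0.29 without CON replicate 1 (DESeq2 *Padj* = 0.227). The likelihood ratio test over the 4 esiRNA groups called *Bid* (DESeq2 *Padj* = 2.50e-11), *Bak1* (0.0271), *Pmaip1* (0.0871) and *Bcl2l1* (0.0999), which were 4 of 10 members where 9.92% of genes passed. It called 3, *Bid*, *Bak1* and *Pmaip1*, without CON replicate 1. With replicate number as a block it called only *Bid* and *Bak1*, and edgeR called 2 members. *Bak1* was at 111, 103, 94.4 and 101 in CHREBP, all above BMAL1 and overlapping CON.

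In order of group means, *Bid* went from PAL (792) through BSA (916), BMAL1 (973), CON (1043) and CHREBP (1215) to BOTH (1509). PAL and BSA differed by the test, as did CHREBP and BOTH, while BMAL1 and CON, and CON and CHREBP, did not. BSA and BMAL1 were not tested against each other, and their libraries overlapped. *Bak1* ran from PAL (63.2) through BMAL1 (83.9), CON (84.0), BSA (86.9) and CHREBP (102) to BOTH (121), and no tested pair of neighbours passed. *Pmaip1* ran from BOTH (115) through BMAL1 (139), CHREBP (143), CON (155) and PAL (157) to BSA (243). Of its tested neighbours, only PAL and BSA differed.

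**Figure D3:**
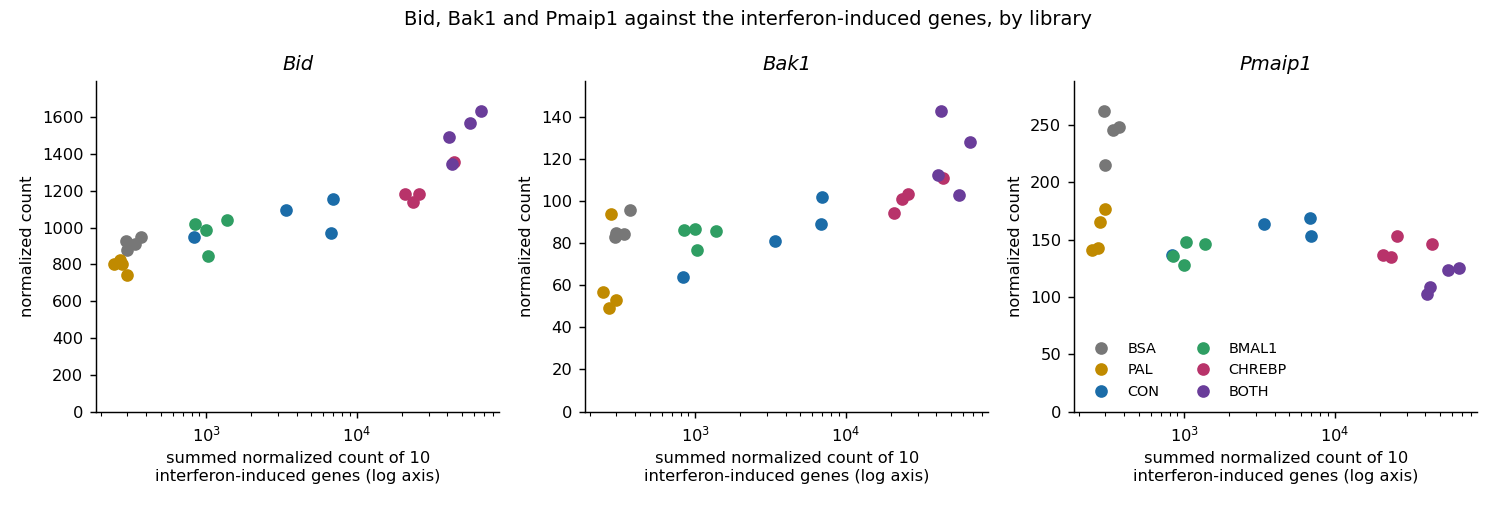
Normalized counts of *Bid*, *Bak1* and *Pmaip1* (y axes, from 0) in each library against the summed normalized count of 10 interferon-induced genes (log x axes), colored by group. *Bid* was lowest in PAL at sums of 246 to 299 and highest in BOTH at 40949 to 66978, whereas *Pmaip1* fell between BSA and PAL, which had the lowest sums.

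The interferon-induced genes moved with part of these results. BSA libraries summed to 293 to 371 normalized counts and PAL libraries to 246 to 299. Among the transfected groups, BMAL1 had sums of 841 to 1382, CON of 826 to 6971, CHREBP of 21040 to 44096 and BOTH of 40949 to 66978. All 10 of these genes were higher in CHREBP and in BOTH than in CON by DESeq2, where 2.65% and 5.99% of all tested genes were. The library with the largest sum had the highest *Bid* in BSA, CON, BMAL1, CHREBP and BOTH, but the lowest *Bid* in PAL (742). It had the highest *Bak1* in BSA, CON and CHREBP, but not in PAL, BMAL1 or BOTH. In CHREBP this was replicate 1 (*Bid* 1357, *Bak1* 111) and in BOTH replicate 2 (*Bid* 1633), while *Bak1* was highest in BOTH replicate 1. Within BOTH, *Bid* was lowest in replicate 1 (1343), whose sum of 42779 was not the smallest, and *Bak1* was lowest in replicate 3 (103), at a sum of 56123. In CON, replicate 1 had the smallest sum and the lowest *Bid* (946), *Bak1* (63.7) and *Bbc3* (109.5), and also the lowest *Pmaip1* (136) of that group, although *Pmaip1* was lowest in BOTH, where the sums were highest. The part of the interferon-induced genes in these differences was not tested.

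*Bcl2*, *Mcl1*, *Bad* and *Bax* passed no test in any of the comparisons. *Mcl1* was at 2125 to 2420.3 in all 24 libraries, *Bad*, a BH3-only protein regulated by phosphorylation, at 496 to 676, and *Bcl2* at 172 to 322. *Bax* ranged from 12.7 to 50.2 normalized counts, with 9 to 45 counts per library. It shares exons on its own strand with *Gm45808*, which had 0 counts in all libraries, and how shared reads were counted is not given in the sources used here. *Bad* shares exons with *Gpr137* on the other strand. *Bax* received no DESeq2 *Padj* in BMAL1 against CON, BOTH against CHREBP or the interaction, because its mean count fell under DESeq2's independent filter. These are 3′ end counts, which do not scale with transcript length, and levels of different genes are not compared.

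**Figure D4:**
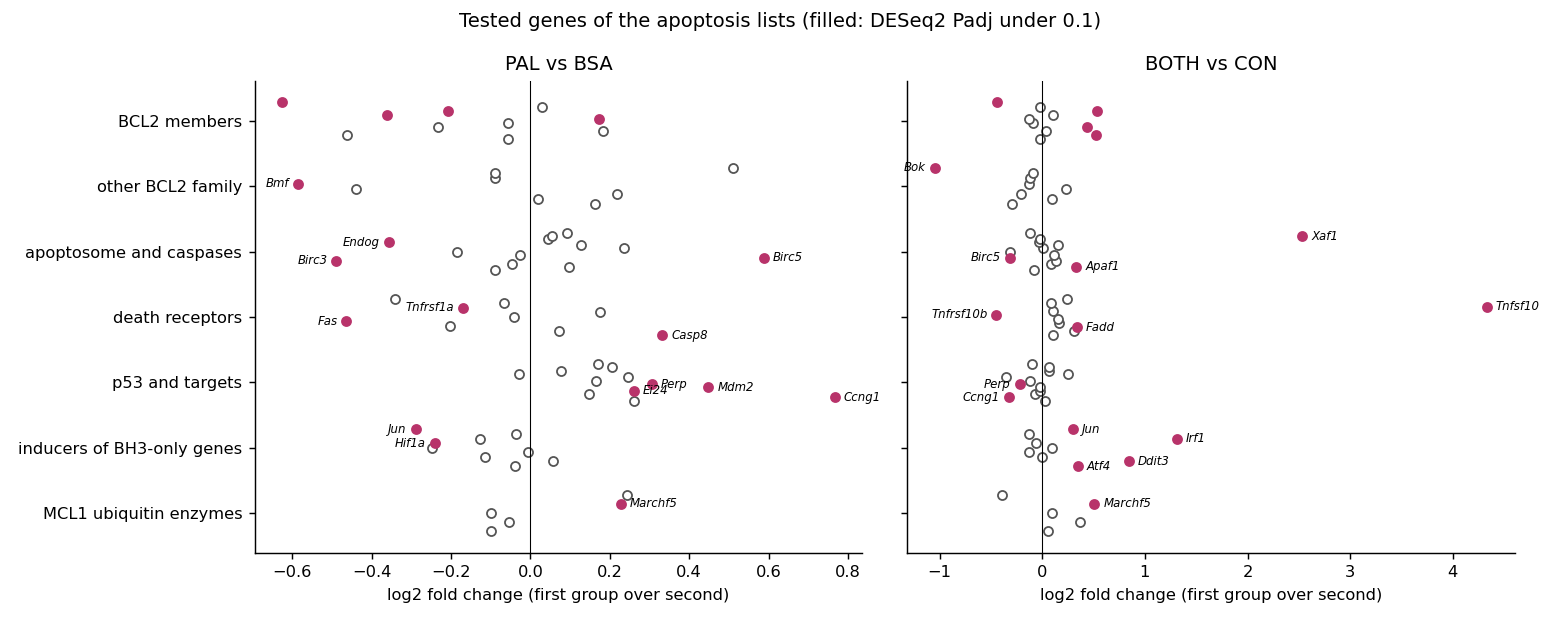
DESeq2 log2 fold changes (x axes) of the tested genes of the BCL2 members and 6 apoptosis lists (y axis) in PAL against BSA and BOTH against CON; filled points passed *Padj* under 0.1, and those outside the members are named. The called genes of the p53 list lay above 0 in PAL against BSA and below 0 in BOTH against CON. The members *Pmaip1* and *Bbc3* are also p53 targets but not in that list: *Pmaip1* lay at -0.62 and -0.44 in these comparisons, called in both, and *Bbc3* at -0.23, not called, and 0.44, called.

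The other genes of the pathway were taken from lists. Of 15 further BCL2 family genes, 8 were tested, with a median log2 fold change of -0.03 in PAL against BSA and -0.13 in BOTH against CON, where all tested genes had 0.00 and -0.01. *Bmf*, another BH3-only gene, fell with palmitate from 865 to 572 normalized counts on average, or -0.59 on the log2 scale (SE 0.08, DESeq2 *Padj* = 3.32e-10), and it was the 1 of 8 called, where 14.3% of all tested genes were. It thus fell like *Pmaip1*, *Bcl2l11* and *Bid*. In CON against PAL it was 0.28 higher (DESeq2 *Padj* = 0.0845), a call lost without CON replicate 1 (0.27, DESeq2 *Padj* = 0.217), with edgeR and in 6 of 8 fits without 1 library. In BOTH against CON, *Bok*, a BAX-like effector, was the 1 of 8 called, where 9.73% of all tested genes were, with means of 37.0 and 17.8 and a log2 fold change of -1.05 (DESeq2 *Padj* = 0.0111). No gene of this list was called in BMAL1 or CHREBP against CON, where 0.49% and 3.42% of all tested genes were. *Bok* was nevertheless at means of 20.3 in BMAL1 and 20.8 in CHREBP, with no library as high as any of CON. Its log2 fold change was -0.86 in BMAL1, where independent filtering left it without a *Padj*, and -0.81 in CHREBP (DESeq2 *Padj* = 0.133).

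Among 13 genes of the apoptosome, the caspases and their inhibitors, 1 rose and 2 fell with palmitate, where 6.65% of all tested genes rose and 7.6% fell, and the list's median log2 fold change was 0.04. *Birc5* (survivin, an inhibitor of apoptosis also needed for cell division) rose by 0.59 on the log2 scale, while the mitochondrial nuclease gene *Endog* changed by -0.36 and *Birc3* by -0.49 (DESeq2 *Padj* = 3.09e-05, 0.0438 and 0.0355). *Endog* was called in 3 of 8 fits without 1 library, those without BSA replicate 4 or PAL replicate 1 or 4 (-0.45 to -0.29 over the 8), and *Birc3* was lost without BSA replicate 1 or 2 or PAL replicate 3 (-0.57 to -0.34). In BOTH against CON, where 5.99% of all tested genes rose and 3.75% fell, 2 of these rose and 1 fell, with a list median of 0.01. *Xaf1*, an interferon-induced antagonist of XIAP, rose by 2.53 and *Apaf1*, the scaffold of the apoptosome, by 0.33 on the log2 scale, and *Birc5* changed by -0.32 (DESeq2 *Padj* = 2.69e-05, 0.0732 and 0.0451). Without CON replicate 1, *Birc5* was at -0.27 and did not pass (DESeq2 *Padj* = 0.180), and it was also lost without BOTH replicate 1 or 3 (-0.38 to -0.25 over 8 fits). *Apaf1* was lost without CON replicate 2 or 4 or BOTH replicate 1 or 2 (0.22 to 0.41). Both were also lost when only the 2 groups compared were fitted. *Xaf1* was the 1 of 13 called in CHREBP against CON (2.01, DESeq2 *Padj* = 0.00444) and in CON against PAL (4.15, DESeq2 *Padj* = 8.98e-06), where 3.42% and 2.51% of all tested genes were, both called in every fit. It was also the 1 called in BMAL1 against CON (-1.87, DESeq2 *Padj* = 0.0691), where 0.49% were, a call lost with edgeR, in the fit of only these 2 groups and in 7 of 8 fits without 1 library, all but that without CON replicate 1. Its means followed the order of the interferon sums among the transfected groups.

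The death receptor pathway, upstream of *Bid*, had 9 tested genes in PAL against BSA and 10 in the esiRNA groups, with median log2 fold changes of -0.07 in PAL against BSA and 0.16 in BOTH against CON. With palmitate, 3 of 9 were called, where 14.3% of all tested genes were: the receptors *Fas* and *Tnfrsf1a* fell, with log2 fold changes of -0.46 and -0.17, and *Casp8*, whose product cleaves BID, rose by 0.33 (DESeq2 *Padj* = 0.000531, 0.0815 and 0.0407). *Fas* was called in every fit. *Tnfrsf1a* was called in 1 of 8 fits without 1 library, that without PAL replicate 1 (-0.21 to -0.15 over the 8), and *Casp8* was lost without BSA replicate 2 or 3 or PAL replicate 3 (0.25 to 0.39 over the 8). In BOTH against CON, 3 of 10 were called, where 9.73% of all tested genes were. *Tnfsf10*, the ligand TRAIL, rose from a mean of 5.15 to 107 normalized counts, or by 4.33 on the log2 scale (SE 0.64, DESeq2 *Padj* = 1.40e-09). Its receptor *Tnfrsf10b* changed by -0.45 (DESeq2 *Padj* = 0.0208) and the adaptor *Fadd* by 0.33 (DESeq2 *Padj* = 0.0887), which did not pass without CON replicate 1 (0.36, DESeq2 *Padj* = 0.108). *Fadd* was called in 2 of 8 fits without 1 library, those without CON replicate 3 or BOTH replicate 1 (0.26 to 0.45 over the 8), and neither with edgeR nor in the fit of only these 2 groups, and *Tnfrsf10b* was lost without BOTH replicate 2 (-0.53 to -0.38). *Tnfsf10* was the 1 of 10 called in CHREBP against CON, where 3.42% of all tested genes were, at a mean of 51.6 (log2 fold change 3.28, DESeq2 *Padj* = 4.10e-05). No gene of this list was called in CON against PAL or BMAL1 against CON, where 2.51% and 0.49% of all tested genes were. Some of them, *Tnfsf10* included, had an unadjusted DESeq2 p under 0.05 there, and the share of all tested genes at that cut is not given here. Independent filtering left *Tnfsf10* without a *Padj* in both: it was at 0 in all PAL libraries and at means of 5.15 in CON and 1.47 in BMAL1 (log2 fold change of BMAL1 against CON -1.78), with overlap in each case.

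*Pmaip1* and *Bbc3* are p53 targets, and 12 genes, p53 and some of its other targets, were tested. The list is a selection and does not hold every p53 target, so that its counts describe these 12 genes. With palmitate, where 6.65% of all tested genes rose, 4 of 12 rose and none fell, and the list's median log2 fold change was 0.23. They were *Ccng1* (0.77), the p53 ubiquitin ligase *Mdm2* (0.45), *Perp* (0.31) and *Ei24* (0.26 on the log2 scale), with DESeq2 *Padj* of 3.46e-26, 1.00e-09, 3.66e-05 and 0.00474. *Pmaip1* fell in the same comparison. In CON against PAL the median was -0.15, and 4 fell and none rose, where 0.92% of all tested genes fell: *Sesn1* (-0.66), *Zmat3* (-0.48), *Cdkn1a* (-0.25) and *Ccng1* (-0.19), with DESeq2 *Padj* of 0.0529, 0.00241, 0.0651 and 0.0690. *Zmat3* alone of these was called in every fit. *Sesn1* was called in 2 of 8 fits without 1 library (those without PAL replicate 2 or CON replicate 1), *Cdkn1a* in 1 (without PAL replicate 2) and *Ccng1* in 3 (without PAL replicate 2 or 3 or CON replicate 1) and not with edgeR, at log2 fold changes of -0.76 to -0.47, -0.29 to -0.22 and -0.23 to -0.14. Without CON replicate 1, *Cdkn1a* was at -0.26 (DESeq2 *Padj* = 0.105). In BOTH against CON, where 3.75% of all tested genes fell, 2 of 12 fell, *Ccng1* (-0.32) and *Perp* (-0.22; DESeq2 *Padj* = 0.0033 and 0.033). *Pmaip1* fell there too, and *Bbc3* rose by a call that did not pass without CON replicate 1 (0.34, DESeq2 *Padj* = 0.191). *Perp* was lost without CON replicate 2 or 3 or BOTH replicate 2 (-0.29 to -0.16 over 8 fits), and when only the 2 groups compared were fitted. No gene of this list was called in BMAL1 or CHREBP against CON, where 0.49% and 3.42% of all tested genes were.

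Known transcriptional inducers of BH3-only genes made a list of 9, with median log2 fold changes of -0.11 in PAL against BSA and 0.10 in BOTH against CON. With palmitate 2 of 9 were called, where 14.3% of all tested genes were. *Jun* had a log2 fold change of -0.29 (DESeq2 *Padj* = 0.0137), a call lost without BSA replicate 3. *Hif1a* was at -0.24 (DESeq2 *Padj* = 0.0884), and this call was lost in all 8 fits without 1 library (-0.27 to -0.21). In BOTH against CON, where 5.99% of all tested genes rose, 4 of 9 rose and none fell: *Irf1* by 1.31, *Ddit3*, which encodes the stress factor CHOP, by 0.85, its activator *Atf4* by 0.34 and *Jun* by 0.30 on the log2 scale (DESeq2 *Padj* = 2.39e-22, 1.39e-08, 7.48e-06 and 0.00416). *Irf1* (0.86) and *Ddit3* (0.43) rose in CHREBP against CON, where 2.65% of all tested genes rose (DESeq2 *Padj* = 4.37e-09 and 0.0525), the latter called in 3 of 8 fits without 1 library, those without CON replicate 1 or 3 or CHREBP replicate 4 (0.36 to 0.49 over the 8). *Irf1* also rose in CON against PAL (0.41, DESeq2 *Padj* = 0.00268), and *Jun* in BMAL1 against CON (0.27, DESeq2 *Padj* = 0.0937), which was lost without CON replicate 1 (0.26, DESeq2 *Padj* = 0.252) and in each of the other fits without 1 library. Among 5 enzymes that add ubiquitin to MCL1 or remove it, or their partners, *Marchf5*, a mitochondrial ubiquitin ligase, was the 1 called in PAL against BSA (0.23, DESeq2 *Padj* = 0.000295), in CHREBP against CON (0.25, DESeq2 *Padj* = 0.00582) and in BOTH against CON (0.51, DESeq2 *Padj* = 9.39e-13), where 14.3%, 3.42% and 9.73% of all tested genes were. *Mcl1* itself was not called. In CHREBP it was at 2204 to 2251 and in CON at 2258 to 2300 normalized counts, without overlap, and its log2 fold change was -0.04 (95% interval -0.13 to 0.05, DESeq2 *Padj* = 0.879), or -0.04 without CON replicate 1.

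The genes whose pattern over the 6 group means was most like that of a member were found by the root mean square difference of centred log2 group means among 9379 genes. They were *Idnk* (0.04), *Car13* (0.05) and *Ilrun* (0.07) for *Bid*, *Cutc*, *Cyth1* and *Pnpla7* (0.07 each) for *Bak1*, and *Micall2* (0.06), *Mpzl1* (0.07) and *Gstm5* (0.09) for *Pmaip1*. These differences are on the log2 scale, over 6 groups that share 24 libraries, and are a description.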

How the data were processed

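For the 24 BRB-seq libraries (6 groups of 4), the authors used the BRB-seq tools for demultiplexing, STAR for alignment to mm10 and HTSeq for counting. The submitters' processing notes also name featureCounts and DESeq2. The deposited values are raw whole-number counts per gene and library, without normalization or pooling. Versions, annotation release, strand use and treatment of molecular identifiers are not given in the sources used here, and intervals cover no error beyond the model. The 5 HTSeq summary lines were left out of the totals; reads not aligned made up 24.9% to 28.0% and reads in no feature 5.11% to 6.47% of a library.

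Members and lists were chosen with earlier results of these data known, and members called at least once are given by library, with at most 4 called genes per list by size. Some genes of the caspase list are not reported here. DESeq2 1.42.0 (R 4.3.3) was fitted to all genes with 25 counts or more in sum, on 8 libraries for PAL against BSA and for CON against PAL and on 16 for the esiRNA groups, with Benjamini-Hochberg adjustment over all tested genes and a threshold of 0.1. Intervals are at 95%. Replicates of a group were compared in 36 pairs, each with a chi-square per degree of freedom of at least 2.74, so that none was counted as 1 library deposited again. This does not show that they were separate cultures. The largest values were those of BOTH replicate 4 against the other BOTH libraries, at 14.4, 24.7 and 13.2. Pairs of CON replicate 1 were at 5.02 to 6.31. Alternatives were edgeR 4.0.16, TMM, other count filters, a replicate block, other sets of libraries and leaving out each library. The scripts were tested on simulated data. Gene positions are from GENCODE M21 on GRCm38, which held 55227 of the identifiers. Levels for the likeness search were log2(normalized count + 1), for genes with a mean of at least 50.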

Additional observations from a re-analysis of the deposited data

Results flagged for a closer look

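In 5 of the 60 sets of 4 libraries (10 members in 6 groups), 1 library lay far from the other 3, where chance flags about 1 in 20. Normalized counts of *Bax* were 26.4 in PAL replicate 4, the next at 21.1, and 40.4 in CON replicate 1, the next at 23.2. *Bak1* was at 95.6 in BSA replicate 3, at 93.9 in PAL replicate 3, where the other PAL libraries reached at most 56.8, and at 76.6 in BMAL1 replicate 3, the others being 85.9 to 86.9.

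The effect of *Bmal1* esiRNA on *Bid* differed between cells with and without *Chrebp* esiRNA by 0.41 on the log2 scale (SE 0.13, DESeq2 *Padj* = 0.0627). The call was lost with edgeR (*Padj* = 0.149), with the replicate block (DESeq2 *Padj* = 0.106) and in 8 of 16 fits without 1 library, where the DESeq2 value was between 0.35 and 0.47 over all 16.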

How the results depend on the processing

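Counts of called members (*Padj* under 0.1) were recomputed with other tests, filters, scalings and sets of libraries. The replicate block gave 1 in PAL against BSA (*Pmaip1*, of 4), 0 in the interaction (of 1) and 2 over the 4 esiRNA groups (*Bid* and *Bak1*, of 4), and changed no other count of members. Whether the numbers pair the libraries was not tested beyond correlations of same-numbered deviations. These ran from -0.01 to 0.08 in PAL against BSA and from -0.03 to 0.17 in CON against PAL. Against CON they ran from -0.07 to 0.03 in BMAL1, from -0.28 to 0.06 in CHREBP and from 0.02 to 0.22 in BOTH. For BOTH they ran from -0.11 to 0.32 against CHREBP and from -0.04 to 0.01 against BMAL1. In no comparison was every one over 0.1. edgeR gave 0 in BOTH against CHREBP, 0 in the interaction and 2 over the 4 groups. Fitting only the 2 groups compared gave 1 in BMAL1 against CON and 1 in CHREBP against CON (*Bcl2l1* in each). Leaving out 1 library gave 2 to 4 in PAL against BSA, 1 to 1 in CON against PAL, 0 to 1 in BMAL1 and in CHREBP against CON, 2 to 4 in BOTH against CON, 0 to 1 in BOTH against CHREBP, 2 to 2 in BOTH against BMAL1, 0 to 2 in the interaction and 2 to 4 over the 4 groups. In BOTH against CON, the 2 left without CON replicate 1 were *Bid* and *Pmaip1*. In PAL against BSA, 2 were left without BSA replicate 2, 3 or 4 or PAL replicate 2. BOTH against CHREBP fell to 0 without CHREBP replicate 2, 3 or 4 or BOTH replicate 2 or 3. The 2 in the interaction came without BMAL1 replicate 1 (*Bid* and *Bcl2l1*), as did the 1 in BMAL1 against CON, and the 1 in CHREBP against CON came without CON replicate 4 (*Bbc3*). The causes were not tested.

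These changes were called in every fit, with these ranges of the log2 fold change without 1 library: *Pmaip1* in PAL against BSA (-0.69 to -0.58) and in BOTH against CON (-0.49 to -0.38), *Bid* in CON against PAL (0.34 to 0.44), BOTH against CON (0.49 to 0.59) and BOTH against BMAL1 (0.57 to 0.68), and *Bak1* in BOTH against BMAL1 (0.45 to 0.60). No called member changed sign. The log2 fold changes of *Bid*, *Bcl2l11* and *Bcl2l1* in PAL against BSA lost their call with the block (DESeq2 *Padj* = 0.133, 0.115 and 0.185). With all 24 libraries in one fit, *Bcl2l1* was also lost there and *Bak1* was called (-0.47, DESeq2 *Padj* = 0.0755), so that the count stayed at 4. Of 56 called values of pathway-list genes, rechecked by a choice made after seeing the data, 30 were called in every fit. *Hif1a* in PAL against BSA and *Jun* in BMAL1 against CON were lost in all 8 fits without 1 library.

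Over all genes, PAL against BSA gave 1188 calls with the block and 1828 without, CON against PAL 186 and 325, and BMAL1 against CON 22 and 68. edgeR gave 14 in BMAL1 against CON, 53 in BOTH against CHREBP (138 with DESeq2) and 122 in the interaction (204). Fitting only the 2 groups gave 144 in BMAL1 against CON and 80 in BOTH against CHREBP. Depth limits *Bax* most, with 9 to 45 counts per library.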
